A study of Saccharomyces cerevisiae with 48 samples.

Results

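RDY249 is a strain of budding yeast (Saccharomyces cerevisiae) in which both BET proteins, Bdf1 and Bdf2, can be destroyed on demand while a BDF1 copy with 2 altered residues in its extra-terminal (ET) domain stays in place. The results concern its 6 libraries of the 48 in the series, picked by the strain and treatment in the sample labels. The cultures of 3 libraries had received the auxin IAA (indole-3-acetic acid, 1 mM) for 3 h, and those of the other 3 its solvent DMSO. Each group has replicates A, B and C, which the study's methods call biological replicates. The question was how much transcription a cell keeps when this altered Bdf1 has to stand in for the tagged proteins.

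All 8 strains of the series carried pGPD1-OsTIR1, which expresses the plant auxin receptor from a constitutive promoter, together with BDF1-3xV5-mAID and BDF2-3xV5-mAID, the degron-tagged genes. RDY249 also held the plasmid pMD44, integrated at TRP1, with the altered BDF1 under its own promoter. Its DMSO cultures therefore contained tagged Bdf1 and Bdf2 beside the altered Bdf1. The strains used for comparison each had 3 libraries per treatment. RDY234 carried an unmodified further BDF1 copy, RDY251 a copy with the same 2 and 2 further altered ET residues, and RDY247 a copy that lacked the B and BID regions. The degree of protein loss was not measured in these files, and each genotype is 1 strain.

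BET proteins bind acetylated histones through their bromodomains, while the ET domain holds short peptides of partner proteins in a groove lined by acidic residues. In yeast, Bdf1 is known as a partner of the general factor TFIID, which helps RNA polymerase II to start transcription. Auxin joins the receptor OsTIR1 to the degron tag, and the tagged protein is then handed to the proteasome. SLAM-seq reports on newly made RNA: cells take up 4-thiouracil (4tU) for a few minutes, and the labelled bases are read as C in place of T after alkylation.

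The alterations of RDY249 lie in an acidic stretch of the ET domain. Both replace aspartate by alanine, D571A and D573A, counted from 1 at the initiator methionine of the 686-residue protein, and RDY251 adds E567A and E569A. The reference coding stretch for residues 559 to 581 (chrXII:919854-919922, minus strand, R64 RefSeq genome) is shown with the codons for residues 571 and 573 in capitals.
BDF1: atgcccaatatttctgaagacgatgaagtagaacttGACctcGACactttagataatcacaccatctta
The GAA codons for residues 567 and 569, which are unaltered in RDY249 and altered in RDY251, lie just before them on the same stretch (chrXII:919896-919898 and chrXII:919890-919892).

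Depth in RDY249 ran from 6614885 to 9653514 reads of S. cerevisiae per library. Reads in which 2 or more T bases were read as C, called T>C reads, numbered 269626 to 851425. Cells of fission yeast (Schizosaccharomyces pombe), mixed in by optical density as a spike-in, gave 371245 to 573027 reads per library. Normalized reads are counts divided by a size factor taken from the S. pombe reads. No library counted as a duplicate, since the chi-square per degree of freedom between replicates was 9.05 to 23.5. The T>C share of unlabelled RNA is unknown, as no library lacking 4tU was analysed here. RDY249 and RDY247 belong to one series of library numbers and RDY234 and RDY251 to another, and in comparisons across them the strain cannot be told apart from the series.

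The genes that the strain carries in altered form were read first. Normalized BDF1 reads (YLR399C, chrXII:919286-921596, the counted interval in R64 coordinates, as for every gene named below) were 2839, 1998 and 2312 in the DMSO libraries and 2012, 1501 and 1277 in the IAA libraries, summed over the tagged and the plasmid copy, which the counts cannot separate. The DMSO mean of 2383 was 4.20 times that of RDY73, the strain without a further copy. TRP1, the marker of the plasmid, stood at 8.85 times its level in RDY73 under DMSO. Newly made BDF1 and BDF2 RNA fell after IAA like that of other genes, with log2 changes of -1.79 (SE 0.216, adjusted p = 2.8e-12) and -1.42 (SE 0.211, adjusted p = 2.42e-09). Relative to the typical gene neither was low: with TMM scaling, explained below, they stood at 0.01 and 0.39.

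Newly made RNA took a smaller share of the reads after IAA. T>C reads made up 9.25%, 8.37% and 8.01% of the S. cerevisiae reads in the DMSO libraries and 4.18%, 4.08% and 3.90% in the IAA libraries. The groups did not overlap, and the share fell 2.11-fold, from 8.54% ± 0.635 to 4.05% ± 0.143 (SD, n = 3; exact two-sided permutation p = 0.1, the smallest that 3 against 3 libraries allow). This share uses no spike-in. RDY234 showed 9.23% ± 1.06 under DMSO and 9.59% ± 0.392 under IAA (SD, n = 3), with overlapping groups.

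Total RNA per spike-in read moved less. The libraries held 24.8, 20.3 and 20.9 S. cerevisiae reads per S. pombe read under DMSO and 19.8, 14.1 and 14.0 under IAA. IAA replicate A came close to the lowest DMSO library, whereas B and C lay well below. The ratio fell 1.38-fold (exact two-sided permutation p = 0.1). Fewer cells in the mix and less RNA per cell cannot be told apart here. The S. pombe reads themselves had a T>C share of 2.67% ± 0.264 beside DMSO and 2.29% ± 0.24 beside IAA (SD, n = 3; exact two-sided permutation p = 0.2), and its part in the results was not tested beyond scaling by S. pombe T>C reads. With that scaling 4738 genes were lowered, against 4836 by the spike-in scaling given next.

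**Figure D1:**
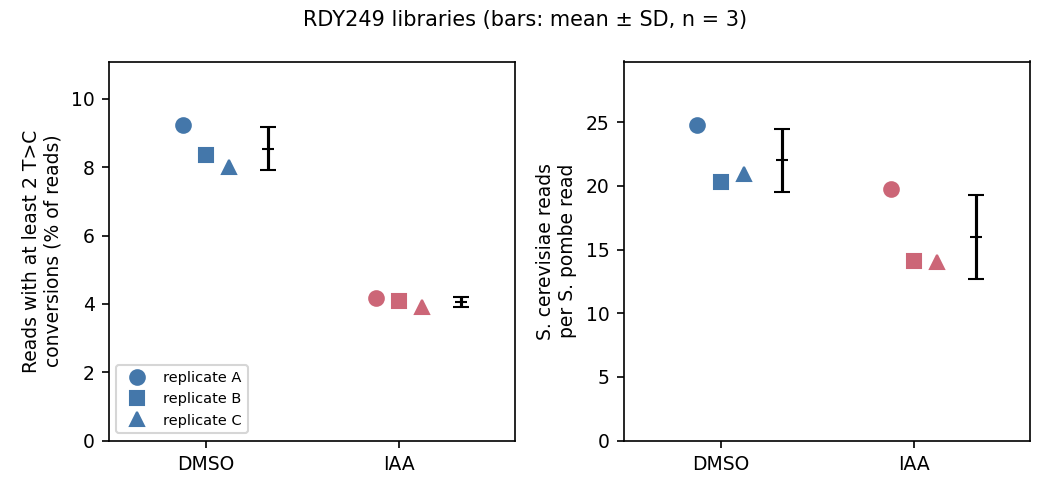
Left, share of S. cerevisiae reads with at least 2 T>C conversions (percent of reads), and right, S. cerevisiae reads per S. pombe read, in the 6 RDY249 libraries; symbols are replicates A, B and C, and bars the mean ± SD (n = 3). The T>C shares of 3.90% to 4.18% under IAA lie below the 8.01% to 9.25% under DMSO, while the gap on the right is narrower.

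Nearly every gene made less new RNA after IAA. Of 5118 genes tested, 4836 (94.5%) were lowered and 4 (0.0782%) raised, where called means an adjusted p under 0.05 in edgeR's quasi-likelihood test and a change of at least 2-fold. The median log2 change of T>C reads was -1.81, a 3.52-fold fall, with quartiles of -2.07 and -1.53. All 3 IAA libraries lay below all 3 DMSO libraries for 4766 genes (93.1%). Set against the mean of the DMSO libraries, the median gene stood at -1.34, -1.90 and -2.02 in IAA replicates A, B and C (SD 0.362) and at 0.39, -0.23 and -0.15 in the DMSO replicates, so both replicates A were high. These values rest on the spike-in: with TMM scaling, which takes the typical gene as unchanged, the median moved to -0.0028, a shift of 1.81 on the log2 scale, and 45 genes were lowered and 155 raised.

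**Figure D2:**
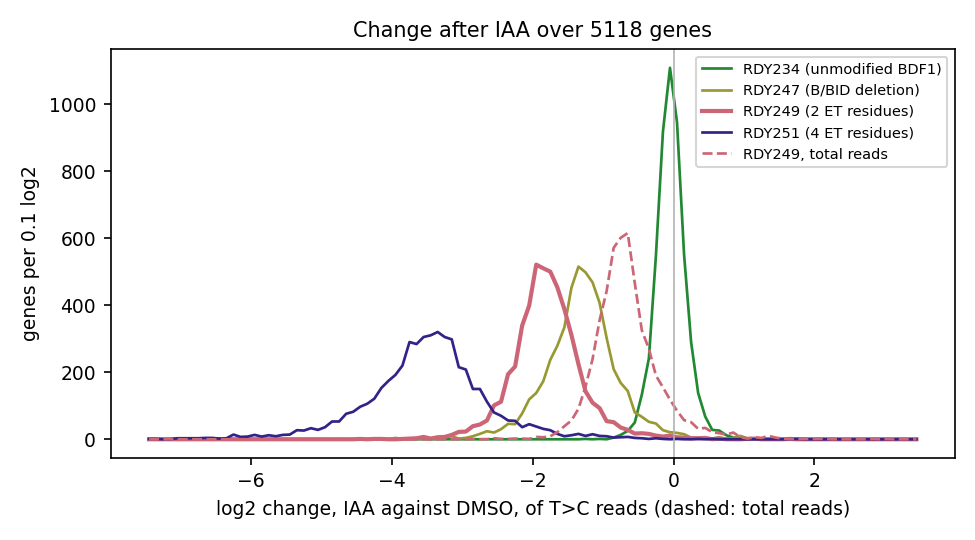
Number of genes per 0.1 log2 (vertical) by their log2 change after IAA (horizontal) for T>C reads in 4 strains, with total reads of RDY249 dashed. The RDY249 curve for T>C reads (median -1.81) lies between RDY247 (-1.30) and RDY251 (-3.48), RDY234 sits near 0 (-0.04), and total reads of RDY249 (-0.71) lie between RDY234 and its own T>C reads.

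The 4 raised genes were HSP12, NCA3, DDR2 and YDL218W. HSP12 (YFL014W, chrVI:107256-107835), which codes for a small stress protein that stabilizes membranes, had 66.3, 68.1 and 114 normalized T>C reads under DMSO and 353, 216 and 198 under IAA. Every IAA library stood above every DMSO library, with a log2 change of 1.62 (SE 0.278, adjusted p = 1.02e-07). T>C reads were a very small share of all HSP12 reads, as given further on. What part of them came from unlabelled RNA was not tested. DDR2 (YOL052C-A, chrXV:231320-231755), another multistress gene, went from 141, 106 and 250.3 to 311, 302 and 492, a log2 change of 1.17 (SE 0.261, adjusted p = 2.43e-05). DMSO replicate C was the highest of its group for both genes, and the groups did not overlap. DDR2 stayed past the adjusted p but under 2-fold without DMSO replicate B (0.91) or IAA replicate C (0.90).

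NCA3 (YJL116C, chrX:193610-194873), a gene of the SUN family, rose from 18.2, 44.7 and 44.4 to 93.7, 78.9 and 77.8 normalized T>C reads, with DMSO replicate A well under the other DMSO libraries. Its log2 change was 1.18 (SE 0.336, adjusted p = 0.000743), and 0.90 without DMSO replicate A. YDL218W (chrIV:66493-67696), a gene of uncharacterized product, had 18.2, 7.82 and 22.2 under DMSO and 40.6, 38.8 and 21.2 under IAA. Its groups overlapped, since IAA replicate C lay under DMSO replicate C, and its log2 change of 1.08 (SE 0.391, adjusted p = 0.00693) dropped under 2-fold without DMSO replicate B (0.69), IAA replicate A (0.93) or IAA replicate B (0.94). Without DMSO replicate B, 2 genes in all were raised.

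RDY234 had positive changes for these genes too. In that strain, whose further BDF1 copy is unmodified, the log2 changes of T>C reads were 1.85 for HSP12, 1.15 for DDR2, 1.59 for YDL218W and 0.12 for NCA3. The difference between the 2 strains' responses was -0.23 for HSP12 (adjusted p = 0.755), -0.51 for YDL218W (adjusted p = 0.461) and 1.06 for NCA3 (adjusted p = 0.0661), none past the threshold. The NCA3 difference did pass it with the replicate letter as a block (1.11), without DMSO replicate B (1.26) and with TMM scaling (2.76). The signs for HSP12 and YDL218W turned with TMM scaling (1.48 and 1.24), and that for HSP12 also without DMSO replicate C (0.06). For DDR2 the difference was 0.02 and changed sign without DMSO replicate A (-0.08), DMSO replicate B (-0.24) or IAA replicate C (-0.26).

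**Figure D3:**
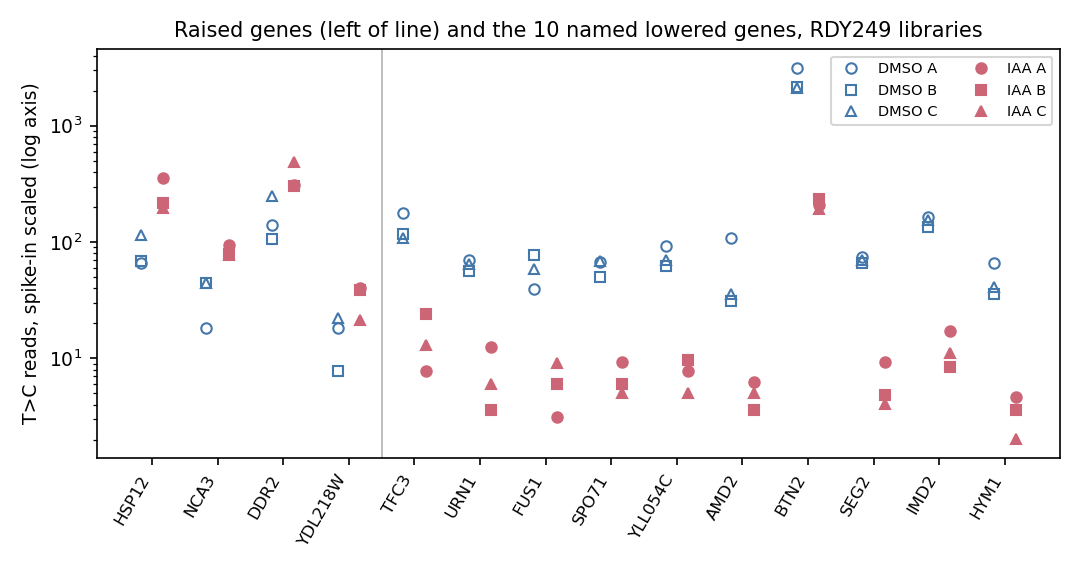
Normalized T>C reads (log axis) of the 4 raised genes, left of the line, and of 10 lowered genes in each RDY249 library; open symbols are DMSO, filled ones IAA, and shapes replicates A, B and C. HSP12, NCA3 and DDR2 have all IAA libraries above all DMSO libraries, YDL218W overlaps, and for the 10 lowered genes no IAA library reaches a DMSO library.

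Genes lowered far past the median belonged to varied processes. HYM1 (YKL189W, chrXI:84704-86153), part of the network that sets daughter-cell gene expression, had 66.3, 35.7 and 41.5 normalized T>C reads under DMSO and 4.69, 3.64 and 2.02 under IAA, a log2 change of -3.80 (SE 0.479, adjusted p = 1.33e-11). IMD2 (YHR216W, chrVIII:554396-556217), an IMP dehydrogenase of guanine nucleotide synthesis, went from 164, 134 and 156 to 17.2, 8.5 and 11.1 (log2 change -3.65, SE 0.309, adjusted p = 3.49e-18). The groups lay far apart for both genes, and replicate A of the IAA cultures was the highest of its group.

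SEG2 (YKL105C, chrXI:238935-242583), a component of the eisosomes under the plasma membrane, fell from 74.6, 65.9 and 69.6 to 9.37, 4.85 and 4.04 (log2 change -3.58, SE 0.378, adjusted p = 3.27e-14). BTN2 (YGR142W, chrVII:772454-773936), which gathers misfolded proteins and is a target of the heat shock factor, fell from 3142, 2155 and 2125 to 206, 237 and 192 (log2 change -3.55, SE 0.249, adjusted p = 1.19e-22). BTN2 was the best measured of these genes, and its IAA libraries lay within 192 to 237. The other 6 genes of this set, AMD2, YLL054C, SPO71, FUS1, URN1 and TFC3, had log2 changes from -3.50 to -3.11, all with groups that did not overlap, which the choice of the set required. FUS1 serves cell fusion in mating and TFC3 is a subunit of TFIIIC, the factor of RNA polymerase III promoters. The relative comparison described further on rescales the same T>C reads, so the choice of the most lowered genes favoured low values there. All 10 stood lower than the typical gene in that comparison. That call was lost with DESeq2 for AMD2, FUS1, SPO71 and URN1, and also without single libraries, where FUS1 came to -1.01 without IAA replicate A, URN1 to -1.14 without IAA replicate B, AMD2 to -1.16 without DMSO replicate A and SPO71 to -1.28 without DMSO replicate C.

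The response was read over 28 gene lists, which were chosen with earlier results of these data known, so their counts are a description. In 18 lists every tested member was lowered, and in 27 no member was raised, beside 94.5% lowered and 0.0782% raised of all genes. Where a median is given for a list, the median of all genes is -1.81 for T>C reads and -0.71 for total reads. These falls hold per S. pombe read: relative to the typical gene the list medians had both signs, for example -0.66 for the Hsf1 chaperones, -0.15 for ribosome biogenesis and 0.26 for histones.

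Genes for the machinery of transcription were lowered throughout, with medians near that of all genes (-1.81), of which 94.5% were lowered. All 15 genes for TFIID and the TATA-binding protein fell (median -1.80), as did 23 of 23 Mediator genes tested (-1.90), 14 of 14 SAGA genes (-1.98) and 12 of 12 genes for RNA polymerase II subunits (-1.78). MED7 (YOL135C, chrXV:69126-70044), a subunit of the middle module of Mediator, showed the deepest fall of the Mediator list, from 73, 25.7 and 22.2 normalized T>C reads to 1.56, 4.85 and 3.03 (log2 change -3.53, SE 0.512, adjusted p = 1.1e-09). TAF6, a TFIID subunit, changed by -2.37 and SPT15, the TATA-binding protein, by -1.34, the lowest and highest of their list. With TMM scaling SPT15 stood at 0.46, above the typical gene, and TAF6 at -0.54.

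The 9 genes for proteins that the study followed as ET partners were all lowered, with log2 changes from -2.20 for PAF1 to -1.36 for RNA14 and a median of -1.85. Of all genes, 94.5% were lowered, with a median of -1.81. The list of partners was taken from the study's text, so it is no independent sample of genes. PAF1, of the elongation complex that carries its name, had 277, 165 and 199.9 normalized T>C reads under DMSO and 56.2, 42.5 and 41.4 under IAA. SGV1, the kinase also called Bur1, had 103, 73.7 and 59.2 and 23.4, 18.2 and 13.1. Both genes had groups that did not overlap, with IAA lower, beside 93.1% of all genes. Total reads of the 9 genes had a median change of -0.52, and none was called there. RNA14, a cleavage factor subunit, had 121, 55.8 and 69.6 and 46.9, 30.3 and 20.2 normalized T>C reads, and stood at 0.46 with TMM scaling.

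Genes for making ribosomes were lowered with few exceptions, beside 94.5% of all genes (median -1.81). All 99 ribosome biogenesis genes were lowered (median -1.95), 82 of 82 genes for large subunit proteins (-1.73), 55 of 56 for small subunit proteins (-1.75) and 67 of 67 for mitochondrial ribosomal proteins (-1.86). The exception, RPS9A, had 339.9, 270.2 and 301 normalized T>C reads under DMSO and 253, 135 and 130.3 under IAA, a change of -0.83 (SE 0.205, adjusted p = 0.000123) that stayed under 2-fold and turned to 0.93 with TMM scaling. RPL10, the least changed of the large subunit list at -1.17, turned to 0.60. Many ribosomal protein genes have a near-identical copy, RPS9A and RPS9B among them, so reads may be split between the copies with uncertainty. In total reads 36 of the 99 biogenesis genes were lowered (median -0.96), beside 1 of 82, 2 of 56 and 0 of 67 in the other lists and 19.4% of all genes.

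Chaperone genes that follow the heat shock factor Hsf1 had the lowest median of the 28 lists. All 24 were lowered, beside 94.5% of all genes, with a median of -2.46 and a range from -3.55 to -1.39. SIS1 (YNL007C, chrXIV:618257-619565), a partner of Hsp70, fell from 1501, 846 and 963 normalized T>C reads to 233, 148 and 146 (log2 change -2.66, SE 0.222, adjusted p = 2.34e-18). SSA4, a stress-induced Hsp70 gene with close relatives in SSA1 to SSA3, fell from 134, 141 and 107 to 28.1, 12.1 and 14.1 (log2 change -2.87, SE 0.345, adjusted p = 2.8e-12). Relative to the typical gene 3 of the 24 were called lowered and 16 passed the adjusted p, all downward, beside 29 of 5118 (0.567%) called lowered and 83 past the adjusted p downward among all genes. The least changed was KAR2, the Hsp70 of the endoplasmic reticulum, with -1.39, which turned to 0.40 with TMM scaling.

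All 4 genes of guanine nucleotide synthesis were lowered in both readouts, with medians of -2.07 for T>C and -1.43 for total reads. Of all genes, 94.5% were lowered in T>C and 19.4% in total reads. Total reads of IMD2 went from 2142, 1585 and 1580.2 to 312, 212 and 196 (log2 change -2.89, SE 0.213, adjusted p = 2.22e-15), the deepest fall of the named genes in total reads. IMD3 and GUA1 changed by -1.53 and -1.03 in total reads. IMD2, IMD3 and IMD4 are close copies of each other, so their counts are uncertain where reads fit more than 1 of them.

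**Figure D4:**
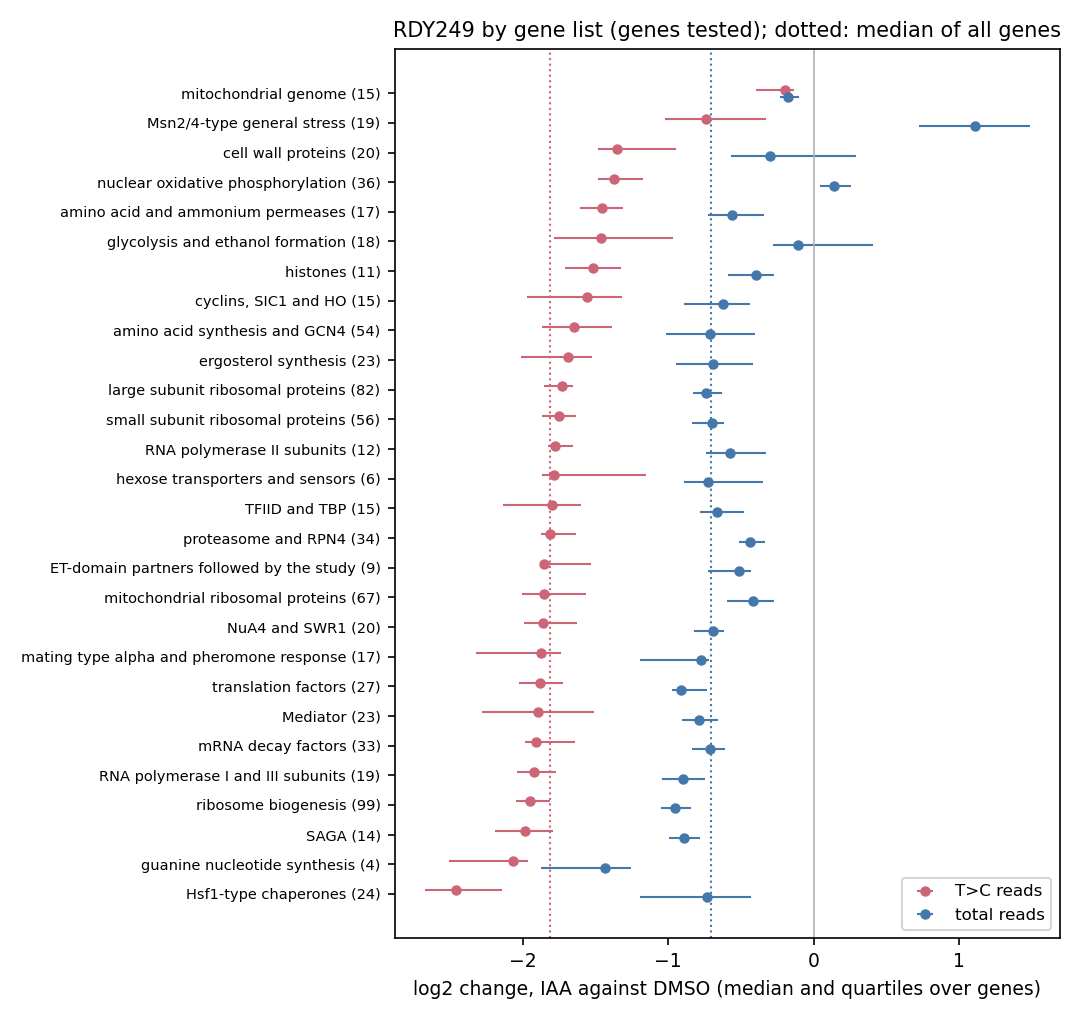
Median log2 change after IAA in RDY249 for each of 28 gene lists (number of genes tested in brackets), for T>C reads and total reads; bars span the quartiles over genes and dotted lines mark the medians of all genes, -1.81 and -0.71. The lists for mitochondrial genome (-0.20) and general stress (-0.74) lie highest in T>C reads, and the Hsf1 chaperones (-2.46) lowest; in total reads only general stress (1.11) and nuclear oxidative phosphorylation (0.14) have a median above 0.

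Total RNA followed only in part. Of the same 5118 genes, 992 (19.4%) were lowered and 37 (0.723%) raised in total reads, with a median log2 change of -0.71 (1.63-fold). The change of T>C reads was below that of total reads in 5106 genes. The count of lowered genes leaned on single libraries: it was 571 without DMSO replicate A, 610 without IAA replicate C and 1984 without IAA replicate A, where the median was -0.90. Of the 4836 genes lowered in T>C reads, 990 were lowered in total reads, 3844 were called neither way and 2 were raised. These were GPG1 and TSL1, named here after their values were seen, at -1.03 and -1.03 in T>C reads and 1.20 and 1.11 in total reads.

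Stress genes led the rise in total RNA. HSP12 went from 7105, 7893 and 11072 normalized reads to 88729, 57071 and 63751 (log2 change 3.01, SE 0.206, adjusted p = 2.27e-16), and DDR2 from 2602, 2366 and 4366 to 22930.0, 18738 and 23784 (log2 change 2.81, SE 0.193, adjusted p = 2.27e-16). HSP26, a small heat shock protein gene, went from 526, 663 and 841 to 3208, 2563 and 2800.0 (log2 change 2.08, SE 0.181, adjusted p = 2.87e-13). For all 3 genes every IAA library lay above every DMSO library by a wide margin. New HSP26 RNA did not move in step: its T>C reads were 9.95, 17.9 and 44.4 and 39.1, 19.4 and 27.3, with overlapping groups and a change of 0.22 that turned negative without DMSO replicate A (-0.10) or IAA replicate A (-0.03).

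Other genes raised in total reads did other work. TDH1 (YJL052W, chrX:338271-339519), a glyceraldehyde-3-phosphate dehydrogenase gene with relatives in TDH2 and TDH3, rose from 1448, 2306 and 2144 to 9996, 8393 and 8358 (log2 change 2.18, SE 0.166, adjusted p = 5.95e-15). YET2, whose product sits in the endoplasmic reticulum, rose by 2.15, and RTN2, a reticulon of the same membrane, by 1.96. YGP1, a secreted glycoprotein of starved cells, and MSC1 rose by 1.82 and 1.79. T>C reads of YET2, RTN2, YGP1 and MSC1 changed by 0.14, -0.33, 0.08 and -0.67, none past the threshold. All 4 had groups for the T>C share of the gene that did not overlap and lay lower under IAA, beside 90.1% of all genes. Of the 37 raised genes, 31 also had a positive change of total reads in RDY234, with a median of 0.37 there over the 37.

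Among genes lowered in total reads, BTN2 went from 5734, 4364 and 4302 to 854, 896 and 784 (log2 change -2.51, SE 0.201, adjusted p = 3.77e-14), with no overlap. MMP1, the S-methylmethionine permease gene, changed by -2.25, the splicing factor gene PRP31 by -2.23 and PUS9, for a tRNA pseudouridine synthase, by -1.96. FUS1 had 87.9, 215 and 130.3 reads under DMSO and 7.81, 46.1 and 43.5 under IAA (log2 change -2.10, SE 0.268, adjusted p = 4.72e-09), where DMSO replicate B was high and IAA replicate A low.

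**Figure D5:**
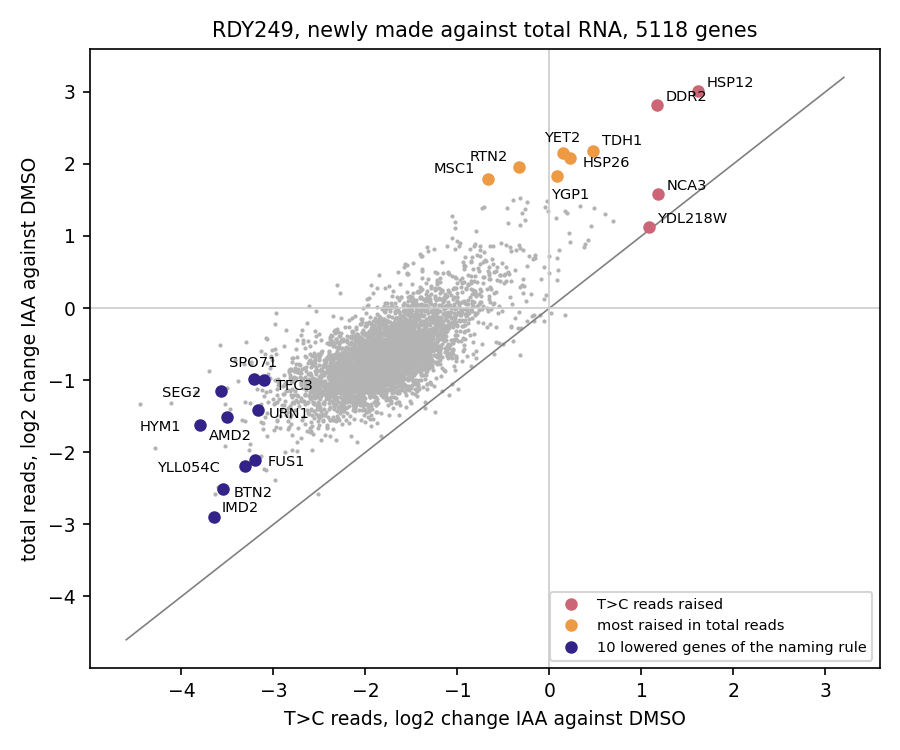
Log2 change after IAA in T>C reads (horizontal) and in total reads (vertical) for each of 5118 genes of RDY249, with the line of equal change; coloured points are genes named by the rule. All but 12 genes lie above the line, that is, their T>C reads changed further down than their total reads, and HSP12 stands at 1.62 and 3.01.

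The general stress genes that answer to the factors Msn2 and Msn4 had the highest median of the 28 lists in total reads. Of 31 genes listed, 19 passed the filter on low counts, and the 12 others are not described. In T>C reads 6 of the 19 were lowered and 2 raised, with a median of -0.74, and in total reads 11 were raised, beside 0.723% of all genes, and none lowered, with a median of 1.11. GRE3, an aldose reductase gene, had 103, 53.6 and 82.9 normalized T>C reads under DMSO and 15.6, 20.6 and 22.2 under IAA (-1.98), and NTH1, for trehalase, had 153, 94.9 and 127 and 70.3, 35.2 and 26.3 (-1.55, but 0.23 with TMM scaling). In RDY234 the same 19 genes had median changes of 0.48 in T>C and 0.45 in total reads. These medians were -0.41 and 1.09 in RDY247, and -2.08 and 0.28 in RDY251. Against RDY234, 12 of the 19 were lowered in T>C reads and none was raised, beside 92.8% lowered and 0 raised of all genes.

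T>C reads of the mitochondrial genome, whose genes are copied by another polymerase, did not fall like those of nuclear genes. None of the 15 mitochondrial genes tested was called in T>C or total reads, with medians of -0.20 and -0.18. T>C reads made up 0.765%, 0.822% and 0.676% of the reads of these genes under DMSO and 0.72%, 0.738% and 0.751% under IAA. Whole libraries of RDY73 under IAA had a mean T>C share of 0.731%. What part of the mitochondrial T>C reads came from unlabelled RNA was not tested. In 13 of the 15 the counted interval shares bases with another. OLI1 (Q0130, chrMT:46723-47203), for a subunit of the ATP synthase, is free of such overlap and had 274, 357 and 201 normalized T>C reads under DMSO and 292, 208 and 153 under IAA, with overlapping groups (-0.37, adjusted p = 0.0878, and 1.37 with TMM scaling). Mitochondrial reads made up 0.176%, 0.193% and 0.127% of all T>C reads under DMSO and 0.473%, 0.441% and 0.341% under IAA, with no overlap (exact two-sided permutation p = 0.1). The nuclear genes for the same respiratory complexes were lowered in 35 of 36 cases in T>C reads (median -1.38), beside 94.5% of all genes. None of them was called in total reads (median 0.14), beside 19.4% lowered and 0.723% raised of all genes. Their median in total reads was 0.22 in RDY247, 0.04 in RDY234 and -0.70 in RDY251. COX4 and QCR8, of complexes IV and III, changed by -1.71 and -0.92 in T>C reads, and turned to 0.15 and 0.92 with TMM scaling.

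The T>C share of each gene, tested as the ratio of T>C reads to other reads within a library, needs no scaling between libraries. The ratio was lowered in 4091 of 5118 genes (79.9%) and raised in 0 by edgeR, with 0 raised also at an unadjusted p under 0.05 and 0 by DESeq2. The median log2 change was -1.32 (2.49-fold), and 4613 genes had all IAA libraries below all DMSO libraries. Set against the mean of the DMSO libraries, the median share stood at -0.99, -1.08 and -1.10 in IAA replicates A, B and C, so replicate A lay closer to the others than it did in spike-in scaled reads.

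Genes with the deepest fall of the ratio were PEX4, SSA4, HYM1, SPO71 and SEG2. In PEX4, a peroxisomal ubiquitin-conjugating enzyme gene, T>C reads made up 45.3, 24.7 and 26.9% of reads under DMSO and 3.95, 6.25 and 5.36% under IAA (log2 change -3.11, SE 0.486, adjusted p = 7.64e-10). In SSA4 they made up 29.6, 29.4 and 22.2% and 6.5, 3.41 and 3.92% (log2 change -2.95, SE 0.292, adjusted p = 1.9e-22), while total SSA4 reads, 454, 479 and 479.9 and 433, 356 and 361, changed by -0.30. SPO71, a spore wall gene, had 40.2, 41.3 and 48.4% and 10.9, 10 and 7.14%. Raised genes had lower shares too: in HSP12 T>C reads made up 0.933, 0.863 and 1.03% under DMSO and 0.398, 0.379 and 0.311% under IAA (log2 change -1.40, SE 0.16, adjusted p = 3.2e-17), and in DDR2 5.42, 4.48 and 5.73% and 1.36, 1.61 and 2.07%. For YDL218W the shares of 28.9, 25.9 and 38.5% and 31.3, 37.2 and 23.9% overlapped. The HSP12 shares under IAA lay below 0.684%, the lowest T>C share of a whole library among the 48. What part of the T>C reads of HSP12 came from unlabelled RNA was not tested.

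Relative to the typical gene, with TMM scaling of T>C reads within the 6 libraries, 141 genes (2.75%) were raised and 29 (0.567%) lowered. Of the 141, 137 were called neither way per S. pombe read, 4 were raised there and 14 belonged to the mitochondrial genome. The 10 highest named genes were HSP12, DDR2, NCA3, YDL218W, ATG17, GAP1, TDH1, PST2, ARN1 and ARG1, with changes from 3.33 to 2.08. ATG17, a scaffold of autophagy, had 53.1, 21.2 and 13.3 spike-in normalized T>C reads under DMSO and 40.6, 44.9 and 43.5 under IAA, with overlapping groups and a change of 0.61. GAP1, the general amino acid permease gene, had 11.6, 21.2 and 20.7 and 23.4, 21.8 and 30.3, with IAA above DMSO in all libraries (log2 change 0.48, SE 0.365, adjusted p = 0.194).

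PST2, a flavodoxin-like gene, had 590.3, 424 and 486 normalized T>C reads under DMSO and 881, 624 and 505 under IAA, and ARN1, a siderophore transporter gene, 154, 226 and 153 and 291, 228 and 186. Their groups overlapped per S. pombe read, with changes of 0.42 and 0.39. ARG1, of arginine synthesis, changed by 0.37 per S. pombe read, and by -0.20 without IAA replicate A. At the other end, the named lowered genes ran from HYM1 over IMD2 (-1.88), SEG2 (-1.81), BTN2 (-1.72) and AMD2 (-1.65) to URN1 (-1.40). The number of relatively lowered genes was 17 without DMSO replicate B, and DESeq2 called 11.

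Promoters of genes raised in total reads often held the stress response element AGGGG, read on both strands (CCCCT on the other), in the 300 bases that end 150 bases before the gene start. Of the 4940 nuclear protein-coding genes tested, 23% held at least 1 and 3.64% at least 2 copies. Of the 31 such genes raised in total reads, 64.5% held at least 1 and 32.3% at least 2, and of the 114 raised relative to the typical gene 40.4% held at least 1. Among the 29 lowered relative to the typical gene the share was 10.3%. These shares are a description, as the motif was chosen with the raised genes known. Of the 4 genes raised in T>C reads, those with at least 2 matches were picked for display. The windows of HSP12 (chrVI:106806-107105, plus strand) and DDR2 (chrXV:231906-232205, minus strand) are shown from the R64 RefSeq genome with each match in capitals.
HSP12: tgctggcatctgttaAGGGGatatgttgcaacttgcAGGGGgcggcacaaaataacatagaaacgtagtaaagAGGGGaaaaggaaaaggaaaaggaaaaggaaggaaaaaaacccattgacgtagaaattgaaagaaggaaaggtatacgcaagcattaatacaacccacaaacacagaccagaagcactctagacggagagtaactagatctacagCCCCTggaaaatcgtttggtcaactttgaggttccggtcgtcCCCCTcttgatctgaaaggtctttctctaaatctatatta
DDR2: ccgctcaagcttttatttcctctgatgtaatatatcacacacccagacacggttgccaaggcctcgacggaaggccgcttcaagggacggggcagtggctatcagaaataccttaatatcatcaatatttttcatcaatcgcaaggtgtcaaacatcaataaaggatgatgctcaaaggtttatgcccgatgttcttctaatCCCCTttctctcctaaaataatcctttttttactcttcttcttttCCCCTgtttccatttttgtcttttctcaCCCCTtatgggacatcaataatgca
HSP12 held 5 matches and DDR2 3, YDL218W held 1, and NCA3 none in its window. Over all genes, the 180 with at least 2 matches had a median change of -1.64 in T>C reads and -0.47 in total reads, against -1.84 and -0.74 for the 3804 with none. A match is a string of letters, and binding was not measured here.

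Against RDY234, the strain with the unmodified copy, the response of RDY249 to IAA was lower in 4748 of 5118 genes (92.8%) and higher in 0 by edgeR, with 0 at an unadjusted p under 0.05 and 0 by DESeq2. The median difference of log2 changes was -1.75, and the RDY234 median itself was -0.04. None of the 4 raised genes of RDY249 was called in this difference, although NCA3 was under the alternatives given for it above. This and the next comparisons all use the same RDY249 libraries, so they are not independent of each other.

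RDY251 has 4 altered ET residues and RDY249 2 of these. New RNA fell less in RDY249: the response was higher in 4003 genes (78.2%) and lower in 3 (0.0586%), with a median difference of 1.64 on the log2 scale. The T>C share of all reads fell from 7.65% to 2.03% in RDY251 and from 8.54% to 4.05% in RDY249. The widest fitted differences were those of YKL091C, ATG3, KEI1, MSN4 and ADE8, all of which had 0 T>C reads in each of the 3 RDY251 IAA libraries, so the size of their difference is not known. ATG3, for an enzyme of autophagy, had 51.4, 43.5 and 22.2 normalized T>C reads under DMSO and 25, 19.4 and 18.2 under IAA in RDY249, and 13, 14 and 19 counted T>C reads in the RDY251 DMSO libraries. MSN4, for a stress factor, had 54.7, 44.7 and 31.1 normalized T>C reads under DMSO and 32.8, 17 and 9.09 under IAA in RDY249, with overlapping groups. The 3 genes with a deeper fall or smaller rise in RDY249 were GAP1 (-1.23), NRK1 (-1.64) and FPR1 (-1.08), and the intervals of NRK1 and FPR1 share bases with another gene. GAP1, the only one free of such overlap, changed by 0.48 in RDY249 and 1.70 in RDY251. The GAP1 call was lost without DMSO replicate B (-1.07) or DMSO replicate C (-1.13), and that of FPR1 without DMSO replicate A (-0.87) or IAA replicate C (-0.92).

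Of the 3 strains compared gene by gene, RDY247 differed from RDY249 in the fewest genes. The choice of strain favoured this, as RDY247 was taken because its median under IAA was the closest to that of RDY249. RDY247 lacks the B and BID regions and comes from the same series of library numbers. Its T>C share of all reads fell from 7.21% ± 0.153 to 4.24% ± 0.0124 (SD, n = 3). The response of RDY249 was lower in 82 of 5118 genes (1.6%) and higher in 0 by edgeR, with 12 higher at an unadjusted p under 0.05 and 0 by DESeq2, and the median difference was -0.51 (median SE of a gene 0.413). The count hung on single RDY249 libraries: it was 871 without IAA replicate A, 335 without DMSO replicate B, 267 without DMSO replicate C, 10 without IAA replicate B, 3 without DMSO replicate A and 2 without IAA replicate C. A gene that missed the threshold is therefore not shown to respond alike in both strains.

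TFC3 was the clearest of these genes. It had 179, 117 and 108 normalized T>C reads under DMSO and 7.81, 24.3 and 13.1 under IAA in RDY249, where its log2 change of -3.11 compared with -0.92 in RDY247 (log2 change -2.19, SE 0.404, adjusted p = 0.00187). IAA replicate A, which had the highest median of its group, was the lowest for TFC3. MRPS5, of the mitochondrial ribosome, PAN1, of endocytosis, the Mediator gene MED1 and INN1, of cytokinesis, differed by -1.98, -1.88, -1.83 and -1.81. Each of these calls was lost with TMM scaling and without DMSO replicate A, IAA replicate B or IAA replicate C. That of INN1 was also lost with DESeq2. IMD2, among the most lowered genes of RDY249 at -3.65, stood at -4.24 in RDY247, and the difference of 0.59 missed the threshold (adjusted p = 0.491).

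The median fall was similar across gene levels and chromosome positions. In 5 bins of equal size by T>C level in RDY234 under DMSO, the median log2 change ran between -1.87 and -1.79, with a Spearman correlation of 0.047 over 5103 nuclear genes, given as a description. By distance to the chromosome end the 5 medians ran between -1.83 and -1.80. Longer intervals fell slightly further (Spearman -0.136). By kind of RNA, 62 tRNA genes had a median of -1.36, 60 snoRNA genes -1.43 and 4953 protein-coding genes -1.83. Libraries primed at poly(A) tails catch such short RNAs only in part, and 31 of the 60 snoRNA intervals share bases with another gene.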

How the data were processed

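The authors, per the file headers and their methods, trimmed reads with fastp (0.23.2), aligned and counted them with SLAM-DUNK, and deposited raw read counts per gene, 1 library per file, with no normalization: total reads and reads with at least 2 T>C conversions. Labelling lasted 6 min per the labels and 4 min per the methods. Intervals follow R64 and mostly run 250 bases past the 3′ gene end, so 1316 of 6465 share bases with another. Total counts of S. pombe genes gave median-of-ratios size factors. Genes averaging 10 or more T>C reads over the 48 libraries were tested with edgeR 4.0.16 (quasi-likelihood, R 4.3.3), in 1 fit of all libraries except for the share and relative comparisons, which used the 6 RDY249 libraries. Benjamini-Hochberg adjustment covered all tested genes. DESeq2 1.42.0, other scalings, filters, a replicate block and leaving out libraries were alternatives. The methods were tested on simulated counts in which a minority of genes changed, equally in both directions. A fall of most genes and error of the spike-in were not simulated.

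Named genes were the raised genes, the most lowered ones with at least 100 T>C reads and no shared bases, the extremes of each other comparison and of each list, and BDF1, BDF2 and TRP1. The gene lists and members were chosen with earlier results of these data known. Same-letter IAA and DMSO libraries deviated together in total reads (r = 0.328, 0.234 and 0.187), but hardly in T>C reads (0.072, 0.026 and 0.049). The letters may therefore pair the cultures, which the labels do not state.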

Additional observations from a re-analysis of the deposited data

Results flagged for a closer look

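The response of RDY249 to IAA was set against that of 3 other strains, and each difference passed a test of the difference itself in some genes. Against RDY234, 4748 genes were lowered further in RDY249. Against RDY251, 4003 genes fell less and 3 genes (GAP1, NRK1 and FPR1) stood lower in RDY249. Against RDY247, 82 genes were lowered further, a count that ranged from 2 to 871 when single RDY249 libraries were left out. The strains of the first pair of comparisons come from another series of library numbers than RDY249, and there the strain cannot be told apart from the series.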

How the results depend on the processing

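Scaling decided direction and count. With TMM in place of the spike-in, the median was -0.0028 for T>C reads (45 genes lowered, 155 raised) and -0.0093 for total reads (32 lowered, 179 raised). The differences had medians of 0.0036 from RDY234 (17 lowered, 72 raised), 0.1116 from RDY251 (47 lowered, 17 raised) and 0.006 from RDY247 (1 lowered). TMM fits the typical gene to no change by construction. Single T>C changes that turned positive with TMM were BDF1 0.009, BDF2 0.3894, TRP1 0.6387, KAR2 0.4014, SPT15 0.4585, RNA14 0.4588, COX4 0.1459, QCR8 0.925, OLI1 1.3676, RPL10 0.5996, RPS9A 0.9311, HXT7 0.9774, NTH1 0.2318, CLN3 0.791, CLB5 0.6536, PGK1 0.0035 and ENO1 1.4501, and in the difference from RDY234 HSP12 1.4784 and YDL218W 1.2382. Signs also turned for HSP26 (-0.1005 without DMSO replicate A, -0.0286 without IAA replicate A, up to 0.9505 without others), ARG1 (-0.2036 without IAA replicate A, up to 0.6824) and, in the difference from RDY234, HSP12 (0.0626 without DMSO replicate C, down to -0.5253) and DDR2 (-0.0761, -0.2389 and -0.2555 without DMSO replicate A, DMSO replicate B and IAA replicate C, up to 0.4427). Their cause was not tested.

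Filters changed how many genes were tested and so the counts. Where genes had to average 50 or more T>C reads, 2309 were lowered and 2 raised in T>C reads, 328 and 11 in total reads, 2023 lowered in the T>C share, 12 lowered and 64 raised relative to the typical gene, 2317 lowered against RDY234, 1 lowered and 2171 raised against RDY251, and 128 lowered against RDY247. With 1 or more, total reads had 97 raised. Scaling by S. pombe T>C reads left 618 lowered in total reads. Relative to the typical gene, TMM over all 48 libraries called 45 lowered and DESeq2 11. Against RDY247, DESeq2 called 159.

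Leaving out 1 library gave 4593 to 4929 lowered and 2 to 4 raised in T>C reads (median -2.03 to -1.60), 571 to 1984 lowered and 28 to 49 raised in total reads (-0.90 to -0.58), 3614 to 4166 lowered in the share (-1.37 to -1.22), 17 to 41 lowered and 127 to 146 raised relative to the typical gene, 4390 to 4870 lowered and 0 to 1 raised against RDY234 (-1.98 to -1.54), 2 to 5 lowered and 3277 to 4363 raised against RDY251 (1.41 to 1.85), and 2 to 871 lowered against RDY247 (-0.73 to -0.29). The T>C share of reads differed by -4.75 to -4.14 percentage points and the reads per S. pombe read by -7.91 to -4.61. With the replicate letter as a block, 4822 genes were lowered and 4 raised in T>C reads, 989 and 37 in total reads, 4093 in the share, 34 and 140 in the relative comparison, 4741 and 1 against RDY234, 3 and 4077 against RDY251, and 252 lowered against RDY247, where the letters are not shown to pair T>C reads. Other alternatives kept these counts within 1.5 times. Of the values for named genes under an alternative, 1189 kept direction and call, 65 lost the call, 16 gained it and 26 changed sign. Genes of low count are imprecise: the median gene's log2 change of T>C reads had an SE of 0.284.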

Other observations

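Several gene groups held members that moved apart from the rest of their list. For the counts in this section, 94.5% of all genes were lowered in T>C reads (median -1.81). In total reads 19.4% of all genes were lowered and 0.723% raised (median -0.71). Of 17 amino acid and ammonium permease genes tested, 14 were lowered in T>C reads (median -1.46), from MMP1 at -3.08 to GAP1 at 0.48. MMP1 went from 79.6, 43.5 and 37 normalized T>C reads under DMSO to 6.25, 4.85 and 7.07 under IAA, with no overlap. Total GAP1 reads rose from 131, 169.7 and 161 to 399.9, 419 and 399 (log2 change 1.39, SE 0.148, adjusted p = 7.67e-11). Of 54 genes of amino acid synthesis, 48 were lowered (median -1.65), among them LEU1 of leucine synthesis at -2.80.

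Of 18 genes of glycolysis and ethanol formation, 13 were lowered in T>C reads (median -1.46), while 3 were raised and 1 lowered in total reads. PGK1 changed by -1.79 in T>C and -0.06 in total reads, whereas ENO1 changed by -0.32 and 1.16. Total ENO1 reads were 7997, 8318 and 7606 under DMSO and 21728, 17061 and 14567 under IAA, with no overlap. ENO1 and ENO2 are close copies, so the split of their reads is uncertain. HXT7, a high-affinity glucose transporter gene nearly identical to HXT6, changed by -0.82 in RDY249 and 1.35 in RDY234 in T>C reads. The difference of -2.17 (SE 0.417, adjusted p = 2.97e-06) lost its call with TMM scaling (-0.42). The median of this difference was -1.75 over all genes and -1.98 over the 6 genes tested for hexose transporters and sensors.

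All 15 genes for cyclins, SIC1 and HO were lowered in T>C reads (median -1.56), beside 94.5% of all genes (median -1.81). The G1 cyclin gene CLN3 changed by -1.02 and CLB5, an S-phase cyclin gene, by -1.16. The CLN3 call was lost with scaling by S. pombe T>C reads (-0.91) and without DMSO replicate A (-0.81), IAA replicate B (-0.76) or IAA replicate C (-0.99), and that of CLB5 without DMSO replicate A (-0.89). Total CLB5 reads changed by -1.16 (SE 0.198, adjusted p = 1.54e-06), and its T>C share, 35.2, 35.5 and 25% under DMSO and 31.5, 29.9 and 32.1% under IAA, overlapped between the groups. All 27 translation factor genes were lowered, from RPG1 at -2.48 to SUI1 at -1.15. All 11 histone genes were lowered in T>C reads (median -1.52) and none was called in total reads (median -0.40). With TMM scaling the T>C changes of PGK1, ENO1, HXT7, CLN3 and CLB5 turned positive.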
